A study of Parasteatoda tepidariorum with 10 samples.

Results

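The comparison between wild-type stage 2 and stage 3 embryos of the house spider *Parasteatoda tepidariorum* used 4 of the 10 libraries of the series. It asked which chromatin regions differed in accessibility before and after the germ disc begins to form. Eggs of stage 2 were 12 h old and those of stage 3 were 18 h old, counted from egg laying, and each stage had 2 libraries. Embryos were whole, untreated and from the Osaka isolate. Replicate 1 of either stage came from line 39 and replicate 2 of either stage from line 40. The assay was ATAC-seq, a method that lets the Tn5 transposase cut open chromatin and tag the cut ends for sequencing. Nuclei were taken from 200 embryos for each stage-2 library and from 40 embryos for each stage-3 library, so that the number of embryos and the stage cannot be told apart. The other 6 libraries were from wild-type embryos at stage 1, 9 h after egg laying, and from stage-3 embryos after parental RNA interference (pRNAi) of *fuchi* or of *Pt-hh*, in which the mother receives the double-stranded RNA.

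The early spider embryo is a sphere of cells around yolk, and the germ disc is the epithelial sheet that forms on one side of it and later gives rise to the germ layers. The product of *fuchi* is a zinc finger protein related to GATA transcription factors, and that of *Pt-hh* is the spider Hedgehog, a secreted signal. An accessible region is usually a stretch of DNA that nucleosomes leave free, as at promoters and enhancers. Regions of this kind often become accessible when transcription factors bind them while the zygotic genome is being switched on.

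Each library had its own list of peaks, each with a signal, the sum of the significance over its length. Signals were not scaled between libraries, so they were turned into percentiles, in which 100 is the strongest peak of a list. The stage-2 lists held 51893 and 23985 peaks and the stage-3 lists 19812 and 12494. Every list was cut to its 12494 strongest peaks. The last peak inside and the first outside had signals of 404.572 and 404.570 in stage 2 replicate 1, of 275.549 and 275.537 in stage 2 replicate 2, and of 311.819 and 311.806 in stage 3 replicate 1. In stage 3 replicate 2 the whole list was used, down to a signal of 200.008. Where peaks of different lists overlapped they were joined, which gave 28720 regions on 1112 scaffolds of the assembly Ptep_2.0.

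The replicates of the stages did not match each other equally well, and this bears on every count of regions. The stage-3 replicates shared 64.7% of their regions, whereas the stage-2 replicates shared 32.1%. Stage 2 replicate 1 shared 42.9% with stage 3 replicate 1 and 42.4% with stage 3 replicate 2. Stage 2 replicate 2 shared 35.6% with stage 3 replicate 1 and 40.1% with stage 3 replicate 2. The stage-2 libraries thus shared fewer regions with each other than with either stage-3 library. The summit p-values were also coarser at stage 2: the commonest value was held by 28.0% and 20.7% of the stage-2 peaks and by 2.68% and 5.34% of the stage-3 peaks. The part of depth, embryo number and library quality in these differences was not tested, since no read totals were used.

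A region was called gained when both stage-3 libraries and neither stage-2 library had a peak there, lost in the opposite case, and kept when all 4 libraries had a peak. There were 2553 gained regions, 8.89% of all regions, 689 lost regions, 2.4%, and 2564 kept regions, 8.93%. The most frequent patterns were peaks of a single library, with 5999 regions in stage 2 replicate 2 only and 5403 in stage 2 replicate 1 only. At stage 3 the corresponding numbers were 2957 in replicate 1 and 2539 in replicate 2. With 2 libraries per stage these counts are a description and carry no p-value.

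**Figure D1:**
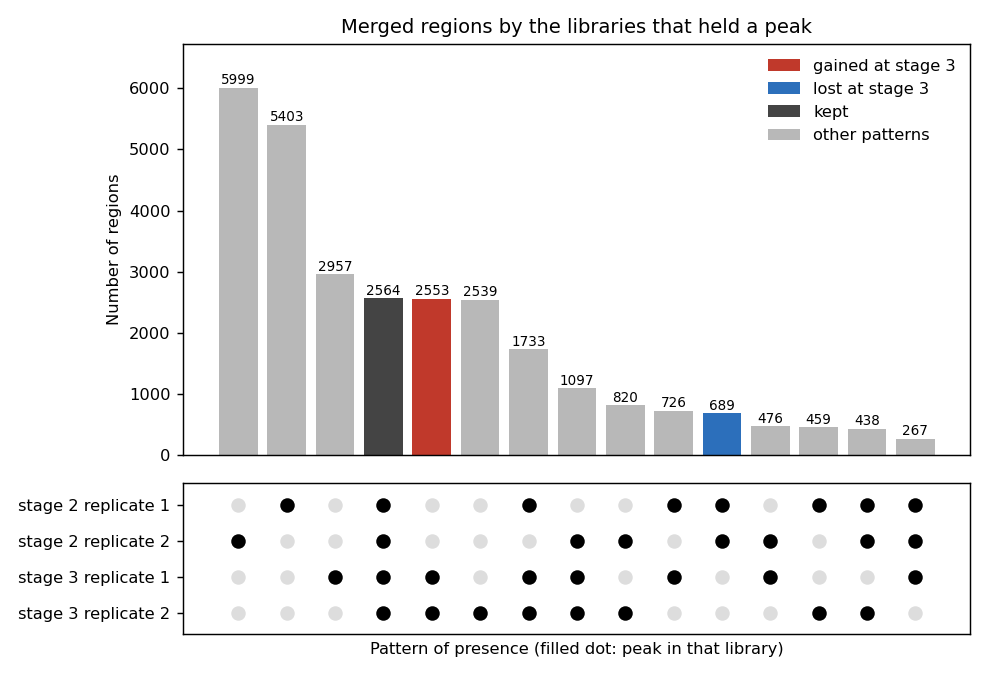
Number of merged regions (y axis) for each pattern of presence over the 4 wild-type libraries (x axis, filled dots below mark the libraries with a peak). Regions of a single stage-2 library were the tallest bars (5999 and 5403), and the gained bar (2553) was as tall as the kept bar (2564) and taller than the lost bar (689).

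The excess of gained over lost regions was counted in lists of equal length that shared more regions at stage 3 than at stage 2. The part of this unequal agreement of the replicates in the excess was not tested. Of the 7947 regions in both stage-3 libraries, 32.1% had a peak in neither stage-2 library, 35.6% in a single one and 32.3% in both. Of the 3958 regions in both stage-2 libraries, 17.4% had a peak in neither stage-3 library, 17.8% in a single one and 64.8% in both. A pair of single libraries with lists of equal length has nearly equal counts of gained and lost regions by construction, so the pairs within a line do not bear on the excess and are given as values. In line 39, 57.2% of the stage-3 regions had no stage-2 peak and 56.9% of the stage-2 regions had no stage-3 peak. In line 40 these shares were 59.7% and 60.2%. The mean counts of these same-line pairs were 7183.5 gained, 7210 lost and 5104.5 kept regions. Without stage 2 replicate 1 there were 4288 gained and 6701 lost regions, and without stage 2 replicate 2 there were 3665 gained and 6116 lost regions. Without stage 3 replicate 1 the counts were 5228 and 958, and without stage 3 replicate 2 they were 5559 and 1123. These counts are also set by the definition, since a stage with a single library has more regions to begin with than a stage in which both libraries need a peak. With all deposited peaks, where the stage-2 lists were longer, 9581 regions were in both stage-3 lists and 9500 in both stage-2 lists. There 1477 regions were gained and 3195 lost.

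With the 5000 strongest peaks of each list, the 11293 merged regions held 1076 gained regions, 9.53%, 311 lost regions, 2.75%, and 1035 kept regions, 9.16%. In these shorter lists 33.6% of the regions in both stage-3 libraries had no stage-2 peak, and 17.8% of the regions in both stage-2 libraries had no stage-3 peak.

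Strong regions were seldom gained or lost. The regions of both stage-3 libraries were sorted into 5 groups of equal size by their mean percentile. In the weakest group, 55.3% had a peak in neither stage-2 library and 11.4% had a peak in both. In the strongest group, 7.92% had a peak in neither and 66.6% in both. Among the regions of both stage-2 libraries the share with no stage-3 peak was 39.02% in the weakest group and 1.39% in the strongest, where 93.3% had a peak in both stage-3 libraries. The weakest peaks of a list are also those that the cut removed. In the full lists, 1307 of the gained regions had a peak in stage 2 replicate 1 and 471 in stage 2 replicate 2. Gained regions with no peak in either full stage-2 list numbered 1038, and lost regions with no peak in either full stage-3 list numbered 543. The full list of stage 3 replicate 2 is the list that was used, so it could not add a peak to any lost region.

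**Figure D2:**
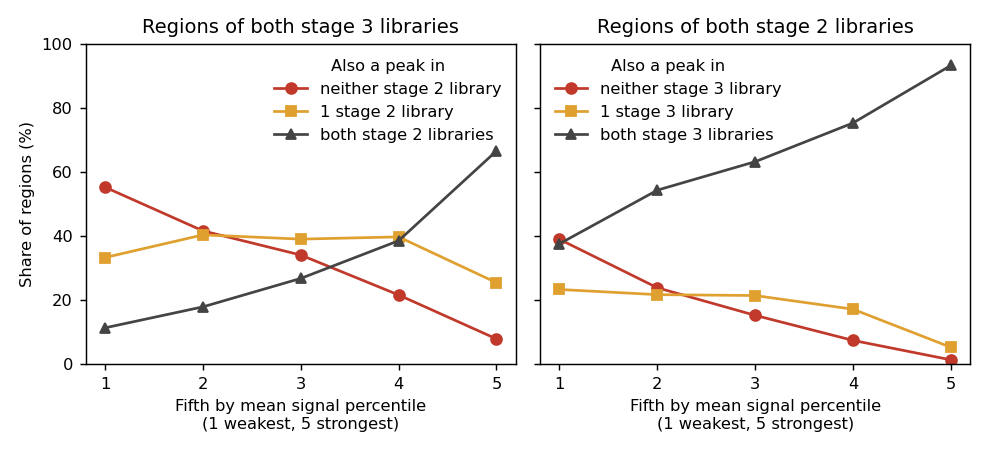
Share of regions (y axis, %) that also had a peak in neither, in 1 or in both libraries of the other stage, in 5 groups of equal size by mean signal percentile (x axis, weakest to strongest), for regions of both stage-3 libraries (left) and of both stage-2 libraries (right). The share with no peak at the other stage was 55.3% in the weakest and 7.92% in the strongest group on the left, and 39.02% and 1.39% on the right.

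The 6 gained regions with the highest mean percentile were among the strongest few percent of both stage-3 lists. The highest was NW_018376213.1:8278421-8281234, a region of 2814 bp with percentiles of 99.4 in stage 3 replicate 1 and 96.5 in replicate 2. It had no peak in either full stage-2 list and none in the cut stage-1 lists. It had a peak in *fuchi* pRNAi replicate 2, at percentile 71.6, and in *Pt-hh* pRNAi replicate 1, at 98.1. Next came NW_018371019.1:12317146-12319535, with percentiles of 97.5 and 96.0. This region had a peak in all 4 pRNAi libraries, between 82.0 and 98.1, and also in both stage-1 libraries, at 16.7 and 81.3.

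The widest of the 6 was NW_018373628.1:2234444-2240549, which spans 6106 bp and had percentiles of 98.1 and 95.3. In the full stage-2 lists it had weak peaks, with signals of 299.516 and 244.142, below the signals at which those lists were cut. The region NW_018371535.1:1453524-1457766, at 97.4 and 95.1, had a peak in 3 of the 4 pRNAi libraries and none at stage 1. The region NW_018383953.1:40729-42074, at 97.2 and 95.1, had a peak in stage 1 replicate 2, at 64.7, and in 2 pRNAi libraries. These were *fuchi* pRNAi replicate 1, at only 0.0377, and *Pt-hh* pRNAi replicate 1, at 44.8. The sixth, NW_018370506.1:7124622-7126023, had percentiles of 97.5 and 94.5 at stage 3, between 87.5 and 96.8 in all 4 pRNAi libraries and 92.9 in stage 1 replicate 2. In the full list of stage 2 replicate 1 it had a peak with a signal of 398.22, just below the last signal inside. Of these 6 regions, 5 therefore had a weaker peak in at least 1 full stage-2 list.

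The 6 strongest lost regions were shorter than most of these, from 665 to 1632 bp. The highest, NW_018368786.1:178009-178982, had percentiles of 93.5 and 96.6 at stage 2 and of 90.7 and 70.7 at stage 1. After *fuchi* pRNAi it was at 5.04 in replicate 1, and no other pRNAi library had a peak. It had a weak peak, with a signal of 283.184, in the full list of stage 3 replicate 1. NW_018374158.1:26737-28270 had percentiles of 98.0 and 88.9 at stage 2 and no peak in either full stage-3 list. It also had none in the cut list of any pRNAi library. NW_018381107.1:27958-29186, at 97.7 and 89.1, was present in both stage-1 libraries and in 3 of the 4 pRNAi libraries, at percentiles from 6.33 to 64.3. NW_018373636.1:278825-279489, at 96.7 and 87.5, had percentiles of 87.6 and 97.1 at stage 1 and 43.9 in *fuchi* pRNAi replicate 1. It had no other peak in the cut lists of stage 3.

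NW_018378148.1:585315-586946, at 88.4 and 94.9, had no peak in the cut list of any stage-3 library, wild-type or pRNAi. It is 1 of 5 lost regions that lie within 29.4 kb on this scaffold. The last, NW_018374226.1:1188851-1189945, at 89.0 and 93.8, had no peak at stage 1, but percentiles of 73.4 and 37.5 after *fuchi* pRNAi. Of the 6 strong lost regions, 5 thus had a peak in at least 1 stage-1 library and 4 had one in a *fuchi* pRNAi library.

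**Figure D3:**
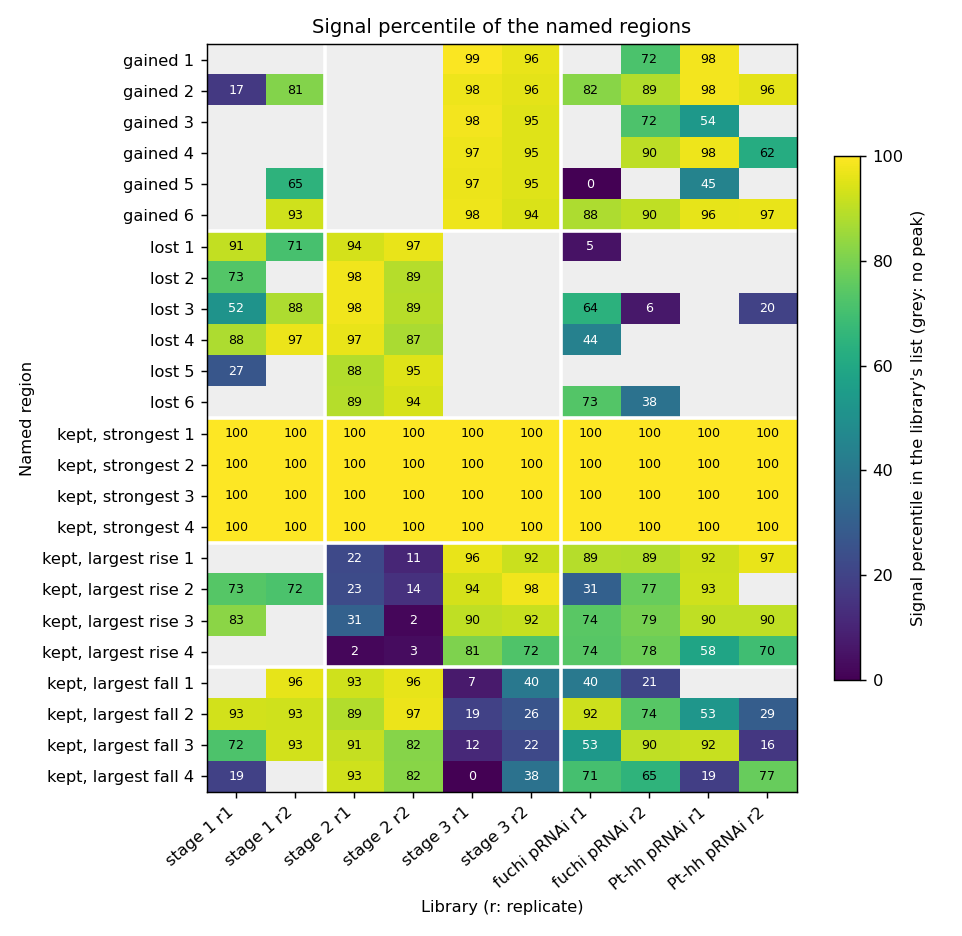
Signal percentile (colour and number, grey where no peak was found) of the named regions (rows, in the order of the text within each group) in all 10 libraries (columns). The lists of the 4 wild-type libraries of stages 2 and 3 held 12494 peaks and the other 6 lists 10616. The gained rows were at 94.5 or more at stage 3 and empty at stage 2, and the 4 strongest kept regions were near 100 in all 10 libraries.

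The 6 libraries that were not used to define the regions gave an independent measurement. Each of these lists was cut to 10616 peaks, the length of the shortest. As deposited, the stage-1 lists held 24066 and 137892 peaks, the *fuchi* pRNAi lists 10616 and 13677, and the *Pt-hh* pRNAi lists 23045 and 19732. Gained regions had a peak in 19.9% and 11.1% of cases in the stage-1 replicates, in 47.5% and 60.3% in the *fuchi* pRNAi replicates, and in 73.8% and 72.3% in the *Pt-hh* pRNAi replicates. In these cut lists all 4 pRNAi libraries, which are of stage 3, lay above both stage-1 libraries. The means were 63.5% ± 12.2 (SD, n = 4) in the pRNAi libraries and 15.5% ± 6.26 (SD, n = 2) at stage 1. The pRNAi group pools knockdowns of different genes, so its SDs also hold any difference between the knockdowns. Lost regions had a peak in 34.5% and 17.1% of cases at stage 1, in 28.7% and 18.7% after *fuchi* pRNAi, and in 8.42% and 9.29% after *Pt-hh* pRNAi. Here the groups overlapped, with means of 16.3% ± 9.52 (SD, n = 4) in the pRNAi libraries and 25.8% ± 12.3 (SD, n = 2) at stage 1. Kept regions had a peak in 74.5% and 50.6% of cases at stage 1 and in 91.9% to 94.3% in the pRNAi libraries. The stage-1 lists thus also held fewer of the kept regions. In the full lists, gained regions had a peak in 36.6% and 50.5% of cases at stage 1. After *fuchi* pRNAi the shares were 47.5% and 70.4%, and after *Pt-hh* pRNAi 93.9% and 90.2%, so the groups overlapped. Lost regions were at 48.8% and 57.6% at stage 1, 28.7% and 26.6% after *fuchi* pRNAi, and 36.6% and 34.7% after *Pt-hh* pRNAi.

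The share of gained regions minus the share of lost regions was −14.6 and −6.04 percentage points in the stage-1 replicates. It was 18.8 and 41.6 points after *fuchi* pRNAi, and 65.4 and 63.0 points after *Pt-hh* pRNAi. The pRNAi mean was higher by 57.5 points (p = 0.0667, exact permutation test over the 6 libraries, two-sided), which is the smallest p that 4 against 2 libraries allow and does not pass 0.05. The test takes both knockdowns together. Gained regions were found more often than lost regions in each of the 4 pRNAi libraries, and less often in both stage-1 libraries. Within line 39, stage 1 replicate 1 was at −14.6 points and *Pt-hh* pRNAi replicate 2 at 63.0 points. The other 3 pRNAi libraries were of line 40, and the labels give no line number for stage 1 replicate 2, so no value within line 40 could be given. The pRNAi libraries also share the 40 embryos per library with wild-type stage 3, and stage 1 shares the 200 embryos with stage 2, so stage and embryo number cannot be told apart here either.

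Stronger gained regions were found more often. Of the 851 gained regions with the highest percentiles, 62.0% and 79.4% had a peak in the *fuchi* pRNAi replicates and 90.6% and 88.0% in the *Pt-hh* pRNAi replicates. In the 851 with the lowest percentiles these shares were 35.4%, 42.9%, 57.6% and 55.6%. A peak in all 4 pRNAi libraries was found for 779 gained regions, 30.5%, and no pRNAi library had a peak in 226, 8.85%. In the cut lists, gained regions with a peak in all 4 pRNAi libraries and in neither stage-1 library numbered 496, 19.4%. This count was chosen after the data were seen. Of the lost regions, 293 had a peak in at least 1 stage-1 library, 42.5%, and 413 had none in any pRNAi library, 59.9%. Only 13 lost regions, 1.89%, had a peak in all 4 pRNAi libraries.

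**Figure D4:**
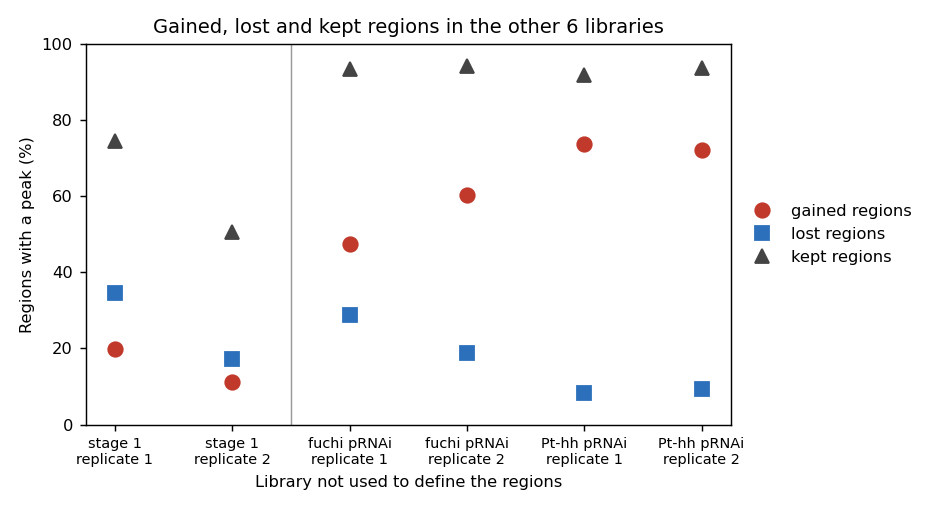
Share of gained, lost and kept regions (y axis, %) with a peak in each of the 6 libraries that did not define them (x axis; the vertical line separates stage 1 from the stage-3 pRNAi libraries). Gained regions were found in 11.1% and 19.9% of cases at stage 1 and in 47.5% to 73.8% after pRNAi, and kept regions in 91.9% or more after pRNAi.

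The 2564 kept regions were stronger than the gained and lost ones, with a median mean percentile of 74.7 against 45.6 and 47.6. Both stage-3 percentiles lay above both stage-2 percentiles in 581 kept regions, 22.7%, and below both in 569, 22.2%. The median change over all kept regions was 0.36 points, from stage 2 to stage 3, and the middle 90% of the changes lay between −37.8 and 40.8 points. The size of the change had a median of 13.3 points, while the replicates of a stage differed by a median of 15.4 points at stage 2 and 9.33 points at stage 3. The change is a difference of means of 2 libraries and the gaps are between single libraries, so the sizes are not directly comparable.

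limma called 0 kept regions higher, 0%, and 0 lower, 0%, at stage 3 at an adjusted p under 0.05 (smallest adjusted p = 0.638). At an unadjusted p under 0.05, 91 regions were higher, 3.55%, and 62 lower, 2.42%, of the 2564 tested. With the line as a block, limma called 1 region higher and 1 lower (smallest adjusted p = 0.0309). Without the block limma also recovered 0 of 200 shifts of 30 points placed in simulated data with the spread of these replicates. Larger shifts were not simulated. The absence of calls therefore does not show that the kept regions were unchanged. The region called higher, NW_018377061.1:318461-322131, had percentiles of 80.6 and 99.6 at stage 2 and of 99.6 and 99.8 at stage 3. The region called lower, NW_018378792.1:20559-24660, had percentiles of 99.6 and 99.9 at stage 2 and of 76.7 and 99.1 at stage 3. In both of these the change was in line 39, while line 40 moved by less than 1 percentile point. The limma SEs of 2.245 and 2.803 points draw on the spread of other regions, so the calls do not show agreement of the lines. On quantile-normalised log2 signal limma called 5 regions higher and 5 lower, and without stage 3 replicate 1 it called 4 lower. Within both lines 809 kept regions were higher at stage 3, 31.6%, and 871 lower, 34%.

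The kept regions whose stages did not overlap could be followed in the libraries that did not define them. Of the 581 higher at stage 3, 164 had a peak in all of the other 6 libraries, and in 141 of these, 86.0%, the mean percentile over the pRNAi libraries was above that over the stage-1 libraries. Of the 569 lower at stage 3, 330 had a peak in all 6, and in 50 of these, 15.2%, the pRNAi mean was above the stage-1 mean. Among the 581 overlapping kept regions with a peak in all 6 it was above in 293, 50.4%. The median difference, pRNAi minus stage 1, was 7.65 points for the regions higher at stage 3, −6.72 for those lower and 0.0165 for those that overlapped. These shares are over regions of the same libraries and are given as a description.

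**Figure D5:**
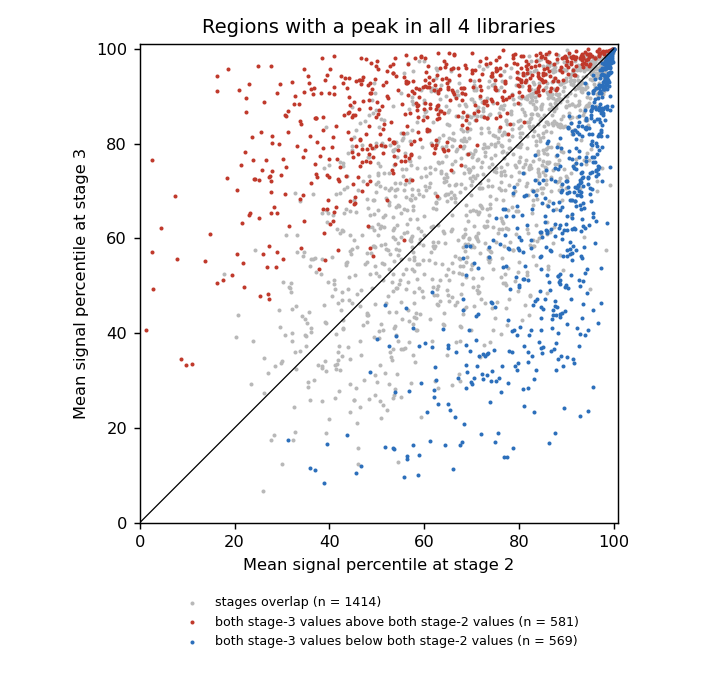
Mean signal percentile at stage 2 (x axis) and at stage 3 (y axis) of the 2564 kept regions, each a point, with the diagonal of equal values. Coloured points are the 581 regions in which both stage-3 values were above both stage-2 values and the 569 in which both were below, and the remaining 1414 regions are grey.

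The 4 strongest kept regions were at the top of every list, where percentiles cannot show a difference in strength. NW_018376755.1:35926-39945 was the strongest peak of both stage-2 lists and the next strongest of both stage-3 lists. Its signals, which are not scaled between libraries, were 31469.5 and 31331.3 at stage 2 and 13195.7 and 15110.4 at stage 3. NW_018374349.1:6332-9355 was the strongest of both stage-3 lists. NW_018380111.1:10592-13169 and NW_018372208.1:2422-5417 were also above percentile 99.9 in all 4 libraries. All 4 spanned 2578 to 4020 bp and stayed above percentile 99.9 in the other 6 libraries.

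The 4 largest upward changes among kept regions were of over 70 points, but none passed the test without a block or with it. NW_018376604.1:728620-729479 had percentiles of 22.1 and 10.6 at stage 2 and of 96.5 and 92.1 at stage 3. It had no peak at stage 1 and lay between 88.5 and 96.9 in the 4 pRNAi libraries. Its change of 77.9 points had a limma SE of 18.5 and an adjusted p of 0.638. NW_018370170.1:5673264-5676490 had 22.8 and 14.4 at stage 2 and 93.6 and 97.8 at stage 3, yet it was at 73.5 and 71.5 at stage 1. It was at 30.6 and 76.9 after *fuchi* pRNAi and at 92.8 in *Pt-hh* pRNAi replicate 1, with no peak in *Pt-hh* pRNAi replicate 2. NW_018378099.1:766905-767923 had 30.9 and 1.71 at stage 2, 90.3 and 91.7 at stage 3, and 74.3 to 90.4 after pRNAi, with 82.5 in stage 1 replicate 1. NW_018376210.1:849372-850323 had 1.88 and 3.498 at stage 2, 80.8 and 72.4 at stage 3 and 58.4 to 78.1 after pRNAi, and no peak at stage 1.

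The 4 largest downward changes were of similar size and did not pass the test either. NW_018376107.1:57954-59732 had percentiles of 92.9 and 96.2 at stage 2 and of 7.05 and 40.0 at stage 3, a change of −71.0 points with a limma SE of 20.3 and an adjusted p of 0.638. It was at 96.1 in stage 1 replicate 2, at 40.3 and 21.1 after *fuchi* pRNAi and absent after *Pt-hh* pRNAi. NW_018379581.1:122809-124323 had 88.6 and 97.0 at stage 2, 19.2 and 25.9 at stage 3 and 93.2 and 92.9 at stage 1. In the pRNAi libraries it was at 92.4 and 73.9 after *fuchi* pRNAi and at 52.6 and 29.4 after *Pt-hh* pRNAi. NW_018378538.1:2893218-2893882 had 91.0 and 81.7 at stage 2 and 11.52 and 22.2 at stage 3, with 53.2 and 90.5 after *fuchi* pRNAi and 91.8 and 16.4 after *Pt-hh* pRNAi. NW_018370301.1:82732-83597 had 92.9 and 82.4 at stage 2 and 0.0400 and 37.8 at stage 3, and between 18.7 and 76.6 after pRNAi. In NW_018378538.1:2893218-2893882 the pRNAi libraries, also of stage 3, were thus spread over about the range of both wild-type stages. In NW_018370301.1:82732-83597 every pRNAi value lay below both stage-2 values and above the lower stage-3 value.

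Peaks were wider in both stage-3 libraries than in both stage-2 libraries. The median width in the cut lists was 449 and 495 bp in the stage-2 replicates and 544 and 516 bp in the stage-3 replicates, with no overlap of the stages. The means were 472 ± 32.5 bp at stage 2 and 530 ± 19.8 bp at stage 3 (SD, n = 2 each), a difference of 58 bp (p = 0.333, exact permutation test, two-sided, the smallest p that 2 against 2 allow). With the 5000 strongest peaks the difference was 97.75 bp, and with all deposited peaks 139 bp. In the kept regions, both stage-3 peaks were wider than both stage-2 peaks in 679, 26.5%, and narrower in 394, 15.4%. Over the kept regions the summits of the stage-3 replicates lay a median of 23 bp apart and those of the stage-2 replicates 68 bp apart, while libraries of different stages gave 47 to 58 bp. The merged gained, lost and kept regions had median widths of 615, 632 and 765 bp.

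Gained regions lay on 434 scaffolds, lost regions on 322 and kept regions on 546. On each of the 20 scaffolds with 200 or more regions, gained regions outnumbered lost ones. Gained regions made up from 6.19% to 16.7% of the regions there and lost regions from 0.429% to 4.11%. The highest share of gained regions was on NW_018376213.1, with 44 of 264, and this scaffold also held the strongest gained region. Distances were measured between centres, over regions that shared a scaffold with another region of their class. The nearest other gained region was a median of 61.0 kb away, the nearest other lost one 304 kb and kept one 53.2 kb. The numbers of regions differ between the classes, and these distances shorten with the number. Within 10 kb of a kept region lay 10.1% of the gained and 12.0% of the lost regions, beside 8.35% and 7.11% of the regions of a single stage-3 or stage-2 library.

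Gene positions on these scaffolds were available here only for genes that the study annotated beside regions differing between *fuchi* pRNAi and wild-type stage-3 embryos. For 128 such genes the position could be used, and regions in the gene or within 10 kb of it were counted. Of these 128 loci, 85 held a gained region, 39 a kept region and 5 a lost region. The loci were picked by the study with the same stage-3 libraries, so a stage-3 peak near them is built in and no rate can be read from them. Of the 26 genes listed for this report from the GATA family, the patterning genes and the genes lowered after *fuchi* pRNAi, 3 were among the 128.

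*Pt-GATA5*, a GATA-family transcription factor gene, had 4 regions, of which 2 were gained, both within the gene, and none kept or lost. NW_018368052.1:1355574-1356076 had percentiles of 76.0 and 82.4 at stage 3, a weak peak in the full list of stage 2 replicate 1, and a peak in all 4 pRNAi libraries and in no stage-1 library. NW_018368052.1:1369565-1370057 had 48.5 and 5.48 at stage 3, no peak in either full stage-2 list, and among the other 6 libraries a peak in *Pt-hh* pRNAi replicate 2 only. Both other regions had a peak in 1 library of each stage. Within the gene, NW_018368052.1:1389801-1390606 had 69.75 in stage 2 replicate 1 and 35.19 in stage 3 replicate 2, and the region within 10 kb had 9.597 in stage 2 replicate 1 and 10.6 in stage 3 replicate 1. *LOC107449642*, listed by the study as lowered after *fuchi* pRNAi, held a single region, NW_018378778.1:319430-320871. It was gained, at 90.8 and 70.7, had a weak peak in the full list of stage 2 replicate 1, and had a peak in both *Pt-hh* pRNAi libraries, in neither *fuchi* pRNAi library and in stage 1 replicate 2.

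*Pt-hh*, which encodes the Hedgehog ligand, was already marked by peaks at stage 2. Of its 11 regions, 4 were kept, 1 gained and none lost. The kept region NW_018380730.1:87143-87627 had percentiles of 92.3 and 77.0 at stage 2 and of 94.4 and 93.0 at stage 3, and NW_018380730.1:118940-119604 had 95.6 and 51.5 at stage 2 and 94.05 and 90 at stage 3. NW_018380730.1:72140-72865 had 86.9 and 82.3 and then 90.02 and 84.7, and NW_018380730.1:81423-82320 had 92.6 and 70.1 and then 85.8 and 86.3. The values of the stages overlapped in these regions except in the one named first, where both stage-3 values were higher. The gained region, NW_018380730.1:127189-127627, lay outside the gene and was weaker, at 35.7 and 36.6. It had a peak in the full list of stage 2 replicate 1, so it was gained only in the cut lists.

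Homeobox genes encode transcription factors with a DNA-binding homeodomain, and 3 of the loci carried this name. They held 6 gained, 6 kept and no lost regions among 51, beside 8.89%, 8.93% and 2.4% of all regions, and the counts are near those shares. *LOC107450665*, named homeobox protein Hox-B4-like, had 3 kept regions, all with both stage-3 values above both stage-2 values. The strongest of these, NW_018374002.1:2814400-2815523, had 93.4 and 88.3 at stage 2 and 98.6 and 97.7 at stage 3, and NW_018374002.1:2833068-2833585 had 63.1 and 64.9 and then 77.9 and 79.6. A gained region in the same gene, NW_018374002.1:2837691-2838383, had 83.5 and 72.9. It had a peak in the full list of stage 2 replicate 1 and one in stage 1 replicate 2. *LOC107450063*, named Meis1, and *LOC107439560*, named Meis2, belong to a family of homeobox proteins that act with Hox proteins. The first had a gained region at 65.8 and 53.4, NW_018381183.1:1809018-1809394, with no peak in either full stage-2 list and a peak in all 4 pRNAi libraries. The second held 33 regions over a long gene, of which 2 were gained and 2 kept. Both of its gained regions had a peak in 1 full stage-2 list.

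The counts of the other named families stand beside 8.89% gained and 8.93% kept of all regions. *LOC107440157* (zinc finger protein 423-like) had 2 gained and 1 kept region among 11. Its gained region NW_018369225.1:237639-238184 had a peak in both full stage-2 lists, and NW_018369225.1:188329-188931 in neither. *LOC107440842* is named after U-shaped, which in *Drosophila* is a cofactor of GATA proteins. It had 1 kept region among 7, at 98.2 and 88.7 and then 98.3 and 94.6. *LOC107457243*, a Wnt-like ligand gene, had 2 kept regions among 8. NW_018377318.1:1553005-1553647 had percentiles of 42.3 and 8.64 at stage 2 and of 77.3 and 87.4 at stage 3, a peak in all 4 pRNAi libraries and none at stage 1. *LOC107452261*, named cadherin-like and PC-esterase domain-containing protein 1, had 3 gained regions among 7, at percentiles of 4.67 to 70.1. NW_018381687.1:1159112-1159814 and NW_018381687.1:1172694-1173264 had a peak in the full list of stage 2 replicate 1. NW_018381687.1:960930-961396 had none in either full stage-2 list. *LOC107451683*, named for a protein of the large ribosomal subunit, had 4 gained regions among 7. The strongest, NW_018379665.1:785668-788331, was at 94.5 and 95.3, and all 4 had a peak in the full list of stage 2 replicate 2, so that they were gained only in the cut lists.

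The genes of this paragraph were chosen after their values were seen. Over all regions the shares were 8.89% gained, 8.93% kept and 2.4% lost, and no rate can be read from loci chosen by their values. *LOC107450033* is named after pangolin, the *Drosophila* TCF protein that acts in the nucleus in Wnt signalling. Of its 33 regions, 6 were gained, 4 kept and none lost. The gained regions ranged from 23.9 to 93.7 in stage 3 replicate 1 and from 16.0 to 84.2 in stage 3 replicate 2. None of them had a peak in a cut stage-1 list. In the full lists, however, 5 of the 6 had a peak in stage 2 replicate 1, so these 5 were gained only in the cut lists. All 4 kept regions had higher percentiles in both stage-3 libraries than in both stage-2 libraries, as in NW_018371019.1:10572797-10574382, at 69.6 and 20.9 and then 94.5 and 83.2. *LOC107445534* is named after groucho, a corepressor in *Drosophila*, and it had 2 lost, 2 gained and 2 kept regions among 19. Its lost region NW_018370835.1:1088672-1089990 had 87.7 and 48.5 at stage 2, and its kept region NW_018370835.1:1284059-1285044 had 94.6 and 77.9 and then 98.1 and 94.6. A T-box gene, *LOC107436847*, had 1 lost, 2 gained and 3 kept regions among 13. Both of the last loci thus held gained and lost regions, although each of their gained regions had a peak in 1 full stage-2 list.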

How the data were processed

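The authors used Trim Galore for trimming, Bowtie2 for alignment to Ptep_2.0 and Genrich for calling peaks per library after duplicate removal, without a control and without pooling replicates (the submitters' processing notes give Bowtie2 2.2.5 and Genrich 0.6). As deposited by the authors, the signal is the summed significance over a peak, never below 200, and the deposited −log10 p-value is taken at the summit. Neither is scaled between libraries, and depth is unknown.

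Lists were cut by signal, peaks overlapping by at least 1 bp were merged, and a region took each library's strongest peak. Percentiles of kept regions were tested with limma 3.58.1 (R 4.3.3, trend, Benjamini-Hochberg, threshold 0.05), and single values with exact permutation tests in Python 3.11.15. Replicate numbers pair libraries by line in the labels; the deviations of the replicates correlated at 0.244 between the stages. That p-values measure the spread between libraries, which may be technical, holds throughout, and limma also draws on the spread of other regions. Scripts were tested on simulated data. There limma recovered shifts of 30 points at a small replicate spread but not at the spread seen here. Named regions were the 6 gained and 6 lost with the highest mean percentile, the 4 strongest kept, and the 4 largest rises and falls among kept regions whose stages did not overlap. Gene positions came from the study's annotation of its own regions. Of 313 entries, 91 were left out because their gene columns belonged to another peak. The members, lists and tests were chosen with earlier results of these data known. Alternatives were all deposited peaks, the 5000 strongest, ranking by p-value, 200 bp summit windows, merging within 100 bp, other scales, and each library left out.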

Additional observations from a re-analysis of the deposited data

How the results depend on the processing

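With the 5000 strongest peaks, 1076 regions were gained, 311 lost and 1035 kept. With all deposited peaks, 1477 were gained, 3195 lost and 4489 kept, and the order of gained and lost turned. With the replicate block, that is within lines, the means were 7183.5 gained, 7210 lost and 5104.5 kept, where lists of equal length make gained and lost nearly equal by construction. Absence from the full lists left 1038 gained regions, and a peak in all 4 pRNAi lists with none at stage 1, chosen after seeing the data, left 496. Leaving out 1 library at a time gave 3665 to 5559 gained, 958 to 6701 lost and 2829 to 4306 kept regions, set in part by the definition. Ranking by p-value, summit windows and merging within 100 bp moved all 3 counts by less than 1.5 times.

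limma called 0 regions in either direction without a block. It called 1 higher and 1 lower with the replicate block, and 5 higher and 5 lower on quantile-normalised log2 signal. With libraries left out it called 0 higher, and 0 to 4 lower, the 4 without stage 3 replicate 1. The cause was not tested. At unadjusted p under 0.05 limma gave 91 higher and 62 lower. No other setting made a call. The difference of the gained minus lost share between pRNAi and stage-1 libraries was 51.4 to 67.0 points with libraries left out (exact permutation p from 0.1 to 0.2), and that of the widths 35 to 81 bp (exact permutation p from 0.333 to 0.667). Neither turned. The share of peaks near a gene start was not run, since no gene annotation of the assembly was used here. Depth limits every absent call, since a weak peak can drop from a list.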

Other observations

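Some gained regions lay in close groups, and 17.4% of all gained regions lay within 10 kb of another gained region. The share within a class was 4.79% for lost and 22.7% for kept regions. For regions of a single stage-3 or stage-2 library it was 28.0% and 28.2%. These shares also depend on the number of regions in a class. On NW_018377809.1, 8 gained regions lay within 41.5 kb, from position 2730074 to 2771592, among 13 regions of which none was kept or lost. Their percentiles ranged from 8.87 to 95.3 in stage 3 replicate 1 and from 0.768 to 98.0 in stage 3 replicate 2. Of the 8, 4 and 7 had a peak in the *fuchi* pRNAi replicates, 7 and 5 in the *Pt-hh* pRNAi replicates, and 1 in each stage-1 replicate. The densest group of lost regions held 5 within 29.4 kb on NW_018378148.1, from position 573998 to 603441, beside 3 kept regions. They had percentiles of 38.9 to 88.4 in stage 2 replicate 1 and of 74.3 to 94.9 in stage 2 replicate 2. None of the 5 had a peak in a *Pt-hh* pRNAi library, while 3 and 2 had one in the *fuchi* pRNAi replicates and 3 and 1 in the stage-1 replicates. Both groups were chosen after their values were seen, as the 50 kb windows with the most regions of a class, and the gained one was tied with 1 other.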
